A study of Mus musculus with 25 samples.

Results

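The genes described here belong to insulin signalling and to the FoxO factors it controls, with a MAP kinase target beside them: Insr, Irs1, Pik3r1, Akt1, Akt2, Foxo1, Foxo3, Igfbp1 and Mknk2. They were taken by gene name from RNA sequencing of the livers of 25 mice, and are 9 of the 30524 genes listed in at least 1 of 5 tables and 9 of the 24774 listed in every table. A gene was tested where 4 or more libraries reached an FPKM of 1, as held for all 9 and for 12741 genes in all. FPKM here is the read count of a gene scaled by its listed length and by the library total, the usual unit of RNA sequencing.

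According to the labels, the study used male mice of the cancer-prone strain C3H/HeJ, 5 weeks old at the start. Diethylnitrosamine (DEN), an alkylating carcinogen that liver cells activate, was injected into the abdomen at 25 mg/kg 2 times a week, in 5 cycles of 3 weeks with a week of rest after each. After a month without injections, drugs were given into the stomach for 3 weeks. The DEN_CAF_SOR group (n = 5) received caffeine at 50 mg/kg 3 times a week and sorafenib, a kinase inhibitor used against liver cancer, at 30 mg/kg 2 times a week. The DEN_SOR group (n = 4) received sorafenib, the DEN_CAF group (n = 5) caffeine and the DEN group (n = 6) the vehicles alone, which for sorafenib was corn oil with 2% DMSO. The Untreated group (n = 5) had saline in place of the carcinogen. The titles name each library as its own mouse. Neither the feeding state at collection nor the presence of tumour in the sampled tissue is stated in the labels.

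Insulin binds the receptor encoded by Insr, a tyrosine kinase that phosphorylates adaptor proteins such as IRS1. These recruit phosphatidylinositol 3-kinase, whose regulatory subunit Pik3r1 encodes, and the lipid it makes activates the kinases AKT1 and AKT2. Active AKT phosphorylates FOXO1 and FOXO3, transcription factors that then leave the nucleus, so that in liver their target genes, Igfbp1 and Irs2 among them, are high in fasting and low after a meal. Mknk2 encodes MNK2, a kinase downstream of ERK and p38 MAP kinases that phosphorylates the translation factor eIF4E. Much of this pathway runs on protein phosphorylation, which RNA levels do not show.

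Igfbp1 has the best known insulin response sequence of these genes, so the promoter is shown here. RefSeq windows from 250 bases before to 50 bases after a start site (build GRCm38.p6, not the build of the files) were found for 8 of the 9 genes, in 13 windows. They were searched on both strands for the FoxO core GTAAACA and for the insulin response elements CAAAACAA and CAAAATAA, and the matches found did not overlap. Of 32851 RefSeq windows, 3.65% hold GTAAACA, 2.51% CAAAACAA, 1.66% CAAAATAA and 7.53% any of them. The window of Igfbp1, chr11:7197537-7197836 on the plus strand, holds both insulin response elements, at positions -108 to -101 and -98 to -91 from the start site, and 33 windows in all hold both. Capitals mark these elements, the second in reverse complement.
Igfbp1: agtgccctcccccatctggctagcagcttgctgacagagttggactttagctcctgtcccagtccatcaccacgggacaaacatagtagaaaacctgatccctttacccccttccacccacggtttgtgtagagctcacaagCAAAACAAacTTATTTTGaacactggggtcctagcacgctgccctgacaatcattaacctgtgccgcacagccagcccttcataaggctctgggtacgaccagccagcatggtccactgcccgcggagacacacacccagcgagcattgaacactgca

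Matches in 2 further promoters are shown for comparison with Igfbp1. The window of Irs1 (chr1:82291390-82291689, minus strand) holds the reverse complement of CAAAACAA at -33 to -26. A window of Akt1 (chr12:112674835-112675134, minus strand) holds the reverse complement of GTAAACA at -161 to -155. The windows of Foxo1, Foxo3, Mknk2, Akt2 and Pik3r1 hold none of these letters. These are matches of letters and say nothing about binding.
Irs1: gcagccgccgcTTGTTTTGgttggggctct
Akt1: atctaccctctTGTTTACactcctggtga

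The libraries held 14750278 to 21992613 assigned reads, and the lowest count of any of the 9 genes in any library was 156 reads, for Irs1. Hepatocyte markers were high in every library (Alb, the albumin gene, had a median of 22649 FPKM), while markers of T cells, muscle, pancreas and fat were low or at 0. Levels were not uniform in DEN livers. Summed neutrophil markers reached 403 FPKM there, with a median of 10.1, against at most 23.9 in the other groups. Summed hepatocyte markers reached 89049 FPKM, with a median of 39849, against at most 50056 in the other groups. Untreated libraries 3, 4 and 5 go against their male label. They held 22879, 29770 and 13370 reads of Xist, which coats the inactive X in female cells, against at most 21 in each other library, and 84, 30 and 48 reads of the Y-linked gene Ddx3y. Most differences from Untreated mice are therefore given with and without these 3 libraries. Medians of gene lists, shares without overlap and Irs2 are, among others, given with all libraries only. DEN 4, with 2 reads of Xist, also had few of Ddx3y, at 132, against 914 to 1689 in the remaining libraries. Genes of the mitochondrial chromosome took 6.36% to 34.8% of reads in the 10 libraries numbered 3 and 4 in their groups, against 5.65% to 9.81% in the other 15.

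With all libraries, Mknk2 alone of this set passed the test between 2 groups. It was higher in DEN_SOR than in Untreated livers, 2.64 times by the group means. Once the Xist-carrying Untreated libraries were dropped, its log2 fold change was 1.16 and it no longer passed (adjusted p = 0.240 by limma). It passed in 6 of 9 fits that each left out 1 library of these groups. Foxo3 had its highest mean in the same DEN_SOR livers, without passing the test. Insr had a lower mean in each of the 4 DEN groups than in Untreated livers, none past the test. For Akt1, Akt2 and Pik3r1 every interval of a difference between groups included 0. By limma, with Benjamini-Hochberg adjustment at 0.05 over the 12741 genes, 1 of the 9 genes was called in DEN_SOR against Untreated (2.62% of all genes tested, and 1.64% in the upward direction).

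In the other comparisons with Untreated mice limma called 0 of the 9 genes, where the share of all genes called was 0.494% for DEN_CAF_SOR, 1.01% for DEN_CAF and 2.04% for DEN. Insr alone had an unadjusted p under 0.05 in each, as did 11.5%, 12.3% and 16.5% of all genes, so 1 of 9 is near the background. In DEN_SOR against Untreated, Mknk2, Foxo3, Irs1 and Insr had an unadjusted p under 0.05 by limma, as did 2371 of the 12741 genes. These 4 comparisons share the same Untreated libraries. Among the DEN groups limma again called 0 of the 9 genes. All genes gave 0.00785% for DEN_CAF against DEN and 0% for DEN_CAF_SOR and for DEN_SOR, each set against DEN, and 0% for the 3 comparisons between drug groups. At an unadjusted p under 0.05, 2 of the 9 genes (Foxo3 and Mknk2) stood in DEN_SOR against DEN (6.19% of all genes) and in DEN_CAF against DEN_SOR (3.74%), and 1 (Mknk2) in DEN_CAF_SOR against DEN_SOR (3.39%). None stood there in DEN_CAF against DEN (2.81%), DEN_CAF_SOR against DEN (2.72%) or DEN_CAF_SOR against DEN_CAF (2.95%). The test of any difference among the 5 groups called 0 of the 9 genes (0.95% of all genes), with Foxo3 and Mknk2 under an unadjusted p of 0.05 (11.4% of all genes). On reads recovered from the tables, edgeR also called Mknk2 in DEN_SOR against Untreated (4.14% of all genes) and no other member in any comparison. DESeq2 called more. It called Mknk2 and Foxo3 in DEN_SOR against DEN (0.243% of all genes), in DEN_SOR against Untreated (9.38%) and in the test over 5 groups (6.84%). It called Insr in DEN_CAF (3.62%) and in DEN (8.17%) against Untreated.

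**Figure D1:**
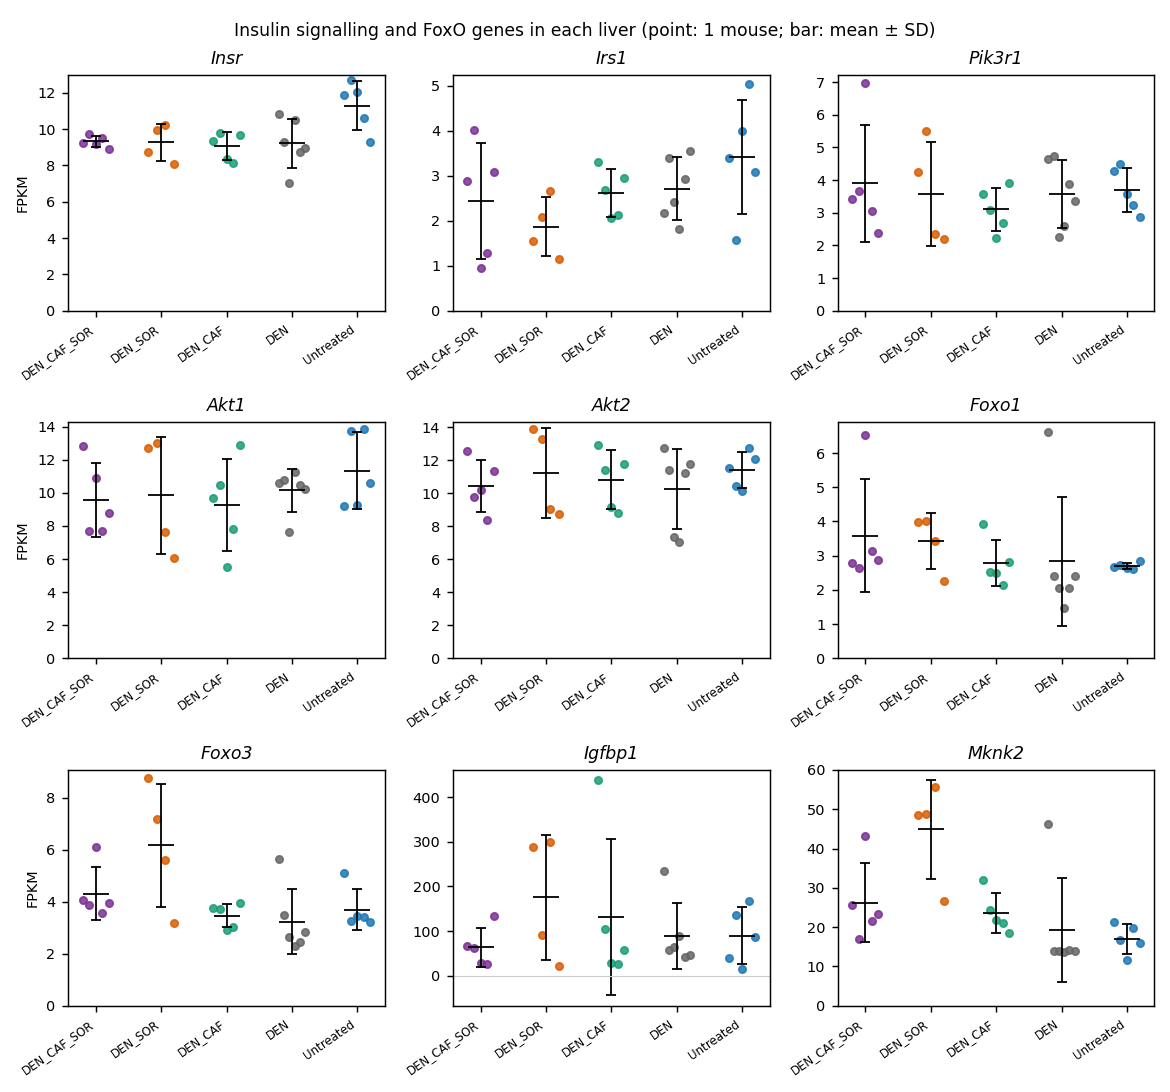
FPKM of the 9 genes in each of the 25 livers (1 point per mouse, with the mean and SD of each group; linear axis). Mknk2 in the 4 DEN_SOR livers lies between 26.8 and 55.7 FPKM, above the 5 Untreated livers, while the groups overlap in every other panel.

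**Figure D2:**
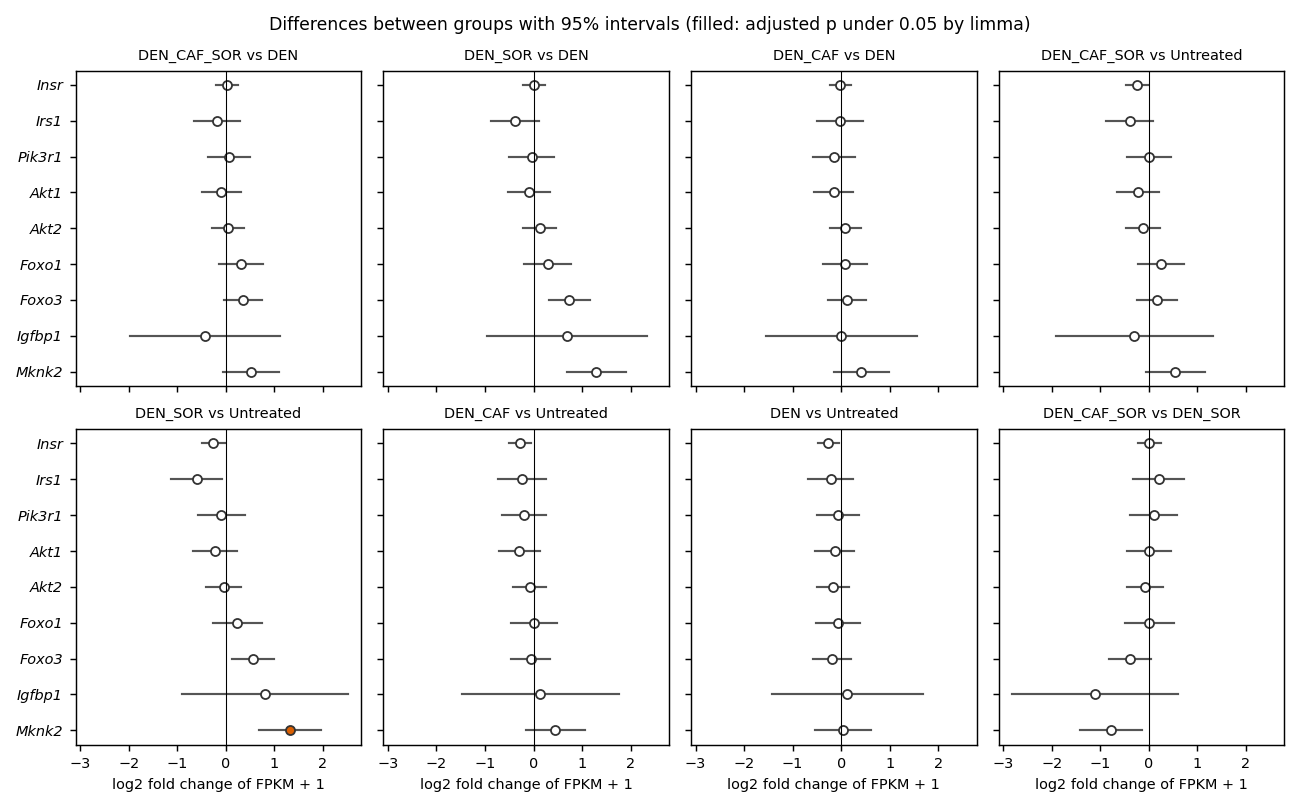
Log2 fold changes of FPKM + 1 (x axis) with 95% intervals for the 9 genes in 8 comparisons, first group over second. The 1 filled point, Mknk2 in DEN_SOR against Untreated, is the only adjusted p under 0.05 by limma.

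The receptor gene Insr (chr8:3172061-3329617, GRCm39, minus strand) had 9.26, 9.75, 9.19, 9.502 and 8.92 FPKM in DEN_CAF_SOR livers, 8.74, 9.98, 10.3 and 8.10 in DEN_SOR livers, and 9.33, 9.79, 8.36, 8.11 and 9.70 in DEN_CAF livers. In DEN livers it ran from 7.04 to 10.8 with a median of 9.14, against 11.9, 12.7, 12.03, 10.6 and 9.27 FPKM in Untreated livers. Untreated livers held the highest mean, 11.3 ± 1.37 FPKM (SD, n = 5), and the 4 DEN groups, with means of 9.06 to 9.32, did not differ from each other beyond their spread. Every DEN-group liver lay below the Untreated mean, but Untreated 5 lay within the range of each DEN group. These FPKM use library totals that include mitochondrial reads, at 33.4% in DEN 3 and 34.8% in DEN_SOR 4. The log2 fold changes from Untreated were -0.25 in DEN_CAF_SOR, -0.26 in DEN_SOR, -0.29 in DEN_CAF and -0.27 in DEN. Their adjusted p by limma were 0.393, 0.231, 0.257 and 0.190. Without the 3 Untreated libraries that carry Xist reads they were -0.37, -0.38, -0.41 and -0.39, with adjusted p from 0.260 to 0.528. DESeq2 gave -0.41 (adjusted p = 0.0263) for DEN_CAF and -0.33 (adjusted p = 0.0443) for DEN against Untreated. Over 12 alternative settings, single libraries left out aside, the differences ran from -0.37 to -0.21 in DEN_CAF_SOR and -0.38 to -0.14 in DEN_SOR. They ran from -0.41 to -0.20 in DEN_CAF and -0.39 to -0.21 in DEN.

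Irs1, the gene of the main receptor substrate together with Irs2 (chr1:82210822-82269137, minus strand), had 2.88, 4.01, 0.941, 1.28 and 3.08 FPKM in DEN_CAF_SOR livers, 1.56, 2.08, 2.67 and 1.16 in DEN_SOR livers, and 3.32, 2.68, 2.06, 2.13 and 2.95 in DEN_CAF livers. It ran from 1.82 to 3.56 with a median of 2.67 in DEN livers, against 3.39, 1.58, 3.99, 5.05 and 3.09 in Untreated livers. Group means ordered Untreated, DEN, DEN_CAF, DEN_CAF_SOR and DEN_SOR from high to low, and each neighbouring pair overlapped. The lowest mean, in DEN_SOR, was 0.60 below Untreated on the log2 scale of FPKM + 1 (log2 fold change -0.60, SE 0.25, unadjusted p = 0.0260, adjusted p = 0.196 by limma). That difference was -0.26 (adjusted p = 0.781) without the Untreated libraries with Xist reads.

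Irs2, the other main substrate in liver and a FoxO target, averaged 3.14 ± 1.42 FPKM in DEN_CAF_SOR, 4.64 ± 2.24 in DEN_SOR, 5.25 ± 2.38 in DEN_CAF, 4.28 ± 0.967 in DEN and 6.13 ± 3.62 in Untreated livers (SD between mice). It ranged 9.73-fold over the 25 livers, from 1.18 FPKM in DEN_CAF_SOR 3 to 11.5 in Untreated 4. Both extremes were shared with Irs1, which had its lowest value in DEN_CAF_SOR 3 and its highest in Untreated 4. With all libraries, Irs2 was called in no comparison.

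Pik3r1 (chr13:101817071-101904725, minus strand), which encodes the regulatory subunit p85α and shorter forms, averaged 3.90 ± 1.79 FPKM in DEN_CAF_SOR, 3.57 ± 1.59 in DEN_SOR, 3.10 ± 0.667 in DEN_CAF, 3.57 ± 1.03 in DEN and 3.69 ± 0.678 in Untreated livers. The highest liver, DEN_CAF_SOR 3 at 6.98 FPKM, stood above the other 4 of that group, which ran from 2.39 to 3.65. Akt1 (chr12:112620255-112641318, minus strand) averaged 9.58 ± 2.23, 9.85 ± 3.54, 9.27 ± 2.78 and 10.2 ± 1.299 FPKM in DEN_CAF_SOR, DEN_SOR, DEN_CAF and DEN livers, against 11.4 ± 2.32 in Untreated livers. Akt2, the form that liver uses most in insulin action (chr7:27290977-27340251, plus strand), averaged 10.5 ± 1.58, 11.2 ± 2.74, 10.8 ± 1.78 and 10.3 ± 2.43 FPKM in the same order, against 11.4 ± 1.09 in Untreated livers. Akt2 was the steadiest of the 3 across group means, with the highest only 1.11 times the lowest.

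The log2 fold changes of these 3 genes ran from -0.29 to 0.21 over the 10 comparisons between groups, and each interval (95%) crossed 0. With the 3 Xist-carrying Untreated libraries set aside, the differences from Untreated ran from -0.41 for Pik3r1 in DEN_CAF to 0.0026 for Akt2 in DEN_SOR, none of them called. For sorafenib on top of the carcinogen, DEN_SOR against DEN, the intervals were -0.50 to 0.43 for Pik3r1, -0.53 to 0.34 for Akt1 and -0.22 to 0.47 for Akt2. In DEN_SOR livers all 3 genes were higher in libraries 1 and 2 (Akt1 at 12.7 and 13.0 FPKM) than in libraries 3 and 4 (Akt1 at 7.61 and 6.05), whose mitochondrial shares were 13.6% and 34.8%, against 7.43% and 7.35% in libraries 1 and 2. Their part in the spread was not tested.

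Foxo1 (chr3:52175757-52260642, plus strand) had 2.79, 2.64, 6.52, 3.12 and 2.86 FPKM in DEN_CAF_SOR livers, 3.99, 4.02, 3.44 and 2.27 in DEN_SOR livers, and 3.92, 2.54, 2.49, 2.16 and 2.80 in DEN_CAF livers. It ran from 1.46 to 6.62 with a median of 2.23 in DEN livers, against 2.68, 2.72, 2.65, 2.62 and 2.84 in Untreated livers. Untreated livers lay close together, whereas DEN_CAF_SOR 3 and DEN 1 stood far above the rest of their groups. Of the 4 DEN_SOR livers, 3 lay above every Untreated liver and DEN_SOR 4 below them. DEN_SOR 4 had 34.8% mitochondrial reads, which count in the library total behind its FPKM. Its place with totals that leave them out is not given here. The mean was 3.43 ± 0.818 FPKM in DEN_SOR against 2.70 ± 0.0847 in Untreated livers (log2 fold change 0.24, SE 0.24, adjusted p = 0.632 by limma; 0.24, adjusted p = 0.810, without the Untreated libraries with Xist reads).

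Foxo3 (chr10:42057837-42152751, minus strand), whose protein binds the same DNA letters as FOXO1, had 4.05, 3.89, 6.11, 3.55 and 3.94 FPKM in DEN_CAF_SOR livers, 8.74, 7.17, 5.61 and 3.18 in DEN_SOR livers, and 3.76, 3.71, 2.93, 3.02 and 3.93 in DEN_CAF livers. It ran from 2.28 to 5.64 with a median of 2.75 in DEN livers, against 5.09, 3.26, 3.45, 3.41 and 3.24 in Untreated livers. The 2 highest livers of the series were DEN_SOR 1 and 2, while DEN_SOR 4 lay below all Untreated livers. That library's total includes 34.8% mitochondrial reads, and its place without them is not given here. Mean FPKM was 6.18 ± 2.37 in DEN_SOR against 3.22 ± 1.25 in DEN livers (log2 fold change 0.74, SE 0.20, unadjusted p = 0.00125, adjusted p = 0.473 by limma), with 3 of 4 DEN_SOR livers above the DEN mean. DESeq2 called this difference (0.94, adjusted p = 0.0315) and edgeR did not.

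Against Untreated livers, at 3.69 ± 0.788 FPKM, the Foxo3 difference in DEN_SOR was 0.56 (SE 0.21, adjusted p = 0.142 by limma). It was 0.43 (adjusted p = 0.573) without the Untreated libraries with Xist reads. It passed the threshold by DESeq2 (0.68, adjusted p = 0.0469), with library totals that leave out the mitochondrial chromosome (0.68, adjusted p = 0.0412) and without DEN_SOR 4 (0.80, adjusted p = 0.0268). DEN_CAF_SOR livers, at 4.31 ± 1.02 FPKM, were between DEN_SOR and DEN. Their difference from DEN_SOR was -0.39 (95% interval -0.82 to 0.05), so that neither a lower level with caffeine nor an equal one was resolved.

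Igfbp1 (chr11:7147782-7152546, plus strand) encodes a secreted protein that binds insulin-like growth factors and is made by liver when insulin is low. Its FPKM were 67.0, 62.9, 29.2, 25.8 and 133 in DEN_CAF_SOR livers, 288, 92.0, 300.3 and 22.5 in DEN_SOR livers, and 438, 105, 29.0, 25.5 and 56.7 in DEN_CAF livers. They ran from 40.6 to 235 with a median of 60.4 in DEN livers, against 40.3, 136, 15.0, 168 and 87.3 in Untreated livers. In 4 of the groups the highest liver stood at 133 FPKM or more and the lowest at 25.8 or less, and all groups overlapped.

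Igfbp1 varied most of the 9 genes: its highest liver held 29.3 times the lowest, with a coefficient of variation of 99.3% against 13.4% for Insr, the steadiest. Group means ran from 63.7 ± 43.3 FPKM in DEN_CAF_SOR to 176 ± 140 in DEN_SOR, and limma called no difference between groups. For DEN_SOR against DEN the log2 fold change was 0.68 with a 95% interval from -0.97 to 2.33, and for DEN_SOR against Untreated it was 0.81 with an interval from -0.90 to 2.53, or 0.65 without the Untreated libraries with Xist reads. Neither the direction nor the size of a change in the gene whose promoter carries the insulin response sequence was resolved with these mice.

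**Figure D3:**
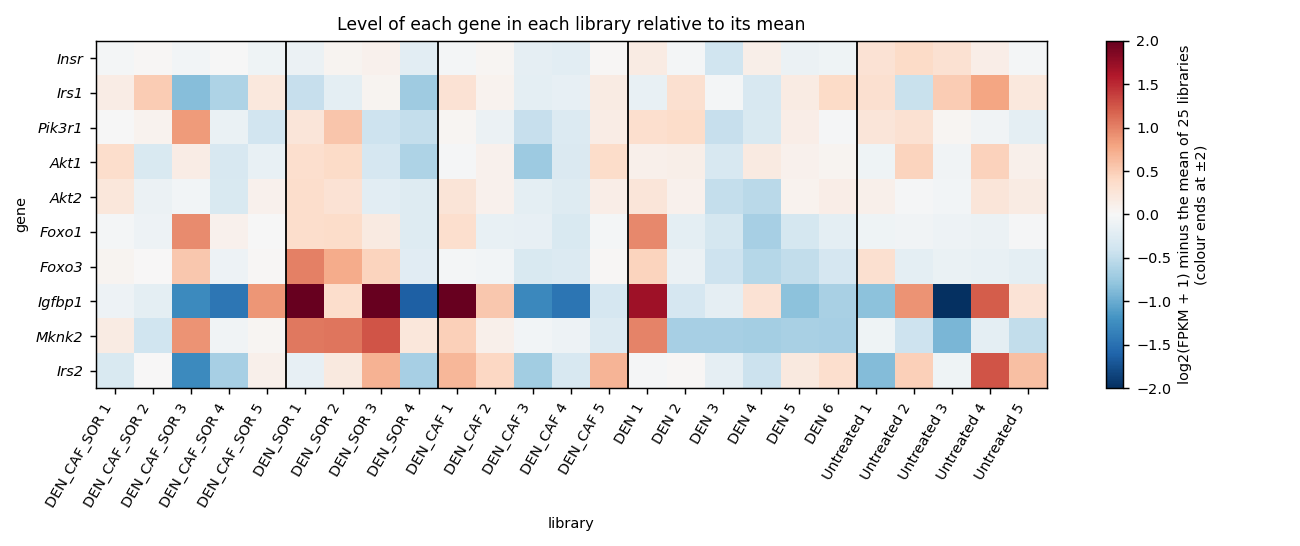
Log2(FPKM + 1) of the 9 genes and Irs2 in each of the 25 libraries, relative to the gene's mean over all libraries (colour scale, cut at 2 in both directions); vertical lines part the groups. DEN_SOR 1 to 3, DEN 1 and DEN_CAF_SOR 3 are high in Foxo1, Foxo3 and Mknk2, and Igfbp1 varies within every group.

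Mknk2 (chr10:80501161-80513946, minus strand) had 25.7, 16.9, 43.2, 21.7 and 23.4 FPKM in DEN_CAF_SOR livers, 48.5, 48.9, 55.7 and 26.8 in DEN_SOR livers, and 32.1, 24.4, 21.9, 21.1 and 18.6 in DEN_CAF livers. It ran from 13.8 to 46.3 with a median of 13.96 in DEN livers, against 21.3, 16.7, 11.6, 19.7 and 15.9 in Untreated livers. All 4 DEN_SOR livers lay above all 5 Untreated livers, the only case among the 9 genes in which the libraries of 2 groups did not overlap. Of all genes tested, 4.29% were higher without overlap in that comparison. Group means ordered DEN_SOR, DEN_CAF_SOR, DEN_CAF, DEN and Untreated from high to low, and the last 4 overlapped with their neighbours.

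Mknk2 averaged 44.9 ± 12.6 FPKM in DEN_SOR against 17.0 ± 3.75 in Untreated livers (log2 fold change 1.33, SE 0.31, adjusted p = 0.0242 by limma; higher in 4 of 4). By edgeR the adjusted p was 0.0204 and by DESeq2 0.00198. Setting aside the 3 Untreated libraries that carry Xist reads gave 1.16 and lost the call (adjusted p = 0.240). Leaving out 1 library at a time gave 1.203 to 1.55 and kept the call in 6 of 9 cases. It was lost without Untreated 3 (1.203, adjusted p = 0.0621), DEN_SOR 1 (1.27, adjusted p = 0.0823) or DEN_SOR 3 (1.21, adjusted p = 0.0846). Within the libraries numbered 3 and 4 it was 1.296 (adjusted p = 0.206) and within the others 1.40 (adjusted p = 0.0862). Untreated 3 and 4 both carry Xist reads and no DEN_SOR library does, so within that split sex and group cannot be told apart.

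Markers of other cell types also differed in that comparison. Of the 5 cholangiocyte markers tested, 4 rose in DEN_SOR (Krt7, Krt19, Epcam and Spp1), and their summed level was 18.7 to 189 FPKM in DEN_SOR against 6.82 to 13.1 in Untreated livers, with Cftr near 0 in both. Of 6 endothelial markers, 2 fell (Stab2 and Tie1), with sums of 8.68 to 29.3 FPKM against 25.5 to 52.8. Without the Untreated libraries with Xist reads none of these 6 marker genes was called (adjusted p from 0.113 for Epcam to 0.290 for Stab2). The cholangiocyte sums also lay above Untreated livers in the other DEN groups, at 16.8 to 162 FPKM. Spp1 weighed most in these sums, with a median of 30.1 FPKM over the 25 livers against at most 2.50 for the other cholangiocyte markers. With all libraries, limma called Sox9 in DEN, Epcam and Spp1 in DEN_CAF, and Spp1 in DEN_CAF_SOR against Untreated. The calls of Epcam and Spp1 were lost without the Xist-carrying libraries, and that setting is not given for Sox9. The part of these cells in the Mknk2 difference was not tested. In bulk liver, fewer cells of a type and less RNA per cell cannot be told apart.

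Against DEN livers, which share the carcinogen, Mknk2 was 1.29 higher in DEN_SOR on the log2 scale (SE 0.30, unadjusted p = 0.00022, adjusted p = 0.252 by limma). Of the 6 DEN livers, 5 held 13.8 to 14.2 FPKM, below all DEN_SOR livers, and DEN 1 held 46.3, above DEN_SOR 4. Without DEN 1 the difference was 1.57 and passed the threshold (adjusted p = 0.00819), and DESeq2 called it with all libraries (1.24, adjusted p = 0.0448). The DEN mean of 19.3 ± 13.2 FPKM rests on that library. DEN against Untreated gave 0.03 (95% interval -0.54 to 0.61), and -0.13 without the Untreated libraries with Xist reads.

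In mice that received caffeine beside sorafenib, Mknk2 averaged 26.2 ± 10.04 FPKM in DEN_CAF_SOR against 44.9 ± 12.6 in DEN_SOR livers. The log2 fold change was -0.78 (95% interval -1.41 to -0.14, unadjusted p = 0.0188, adjusted p = 1 by limma). All 4 other DEN_CAF_SOR livers lay at 25.7 FPKM or less, below every DEN_SOR liver, and DEN_CAF_SOR 3, at 43.2, lay among them. The interaction of the drugs, the difference between DEN_CAF_SOR and DEN_CAF minus that between DEN_SOR and DEN, was -1.19 (SE 0.41, unadjusted p = 0.00829, adjusted p = 0.992). Limma called 0 of 12741 genes for this interaction (0%), with 506 at an unadjusted p under 0.05, while edgeR called 0 and DESeq2 11. DEN_CAF livers, at 23.6 ± 5.15 FPKM, differed from DEN by 0.42 (95% interval -0.16 to 0.99).

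**Figure D4:**
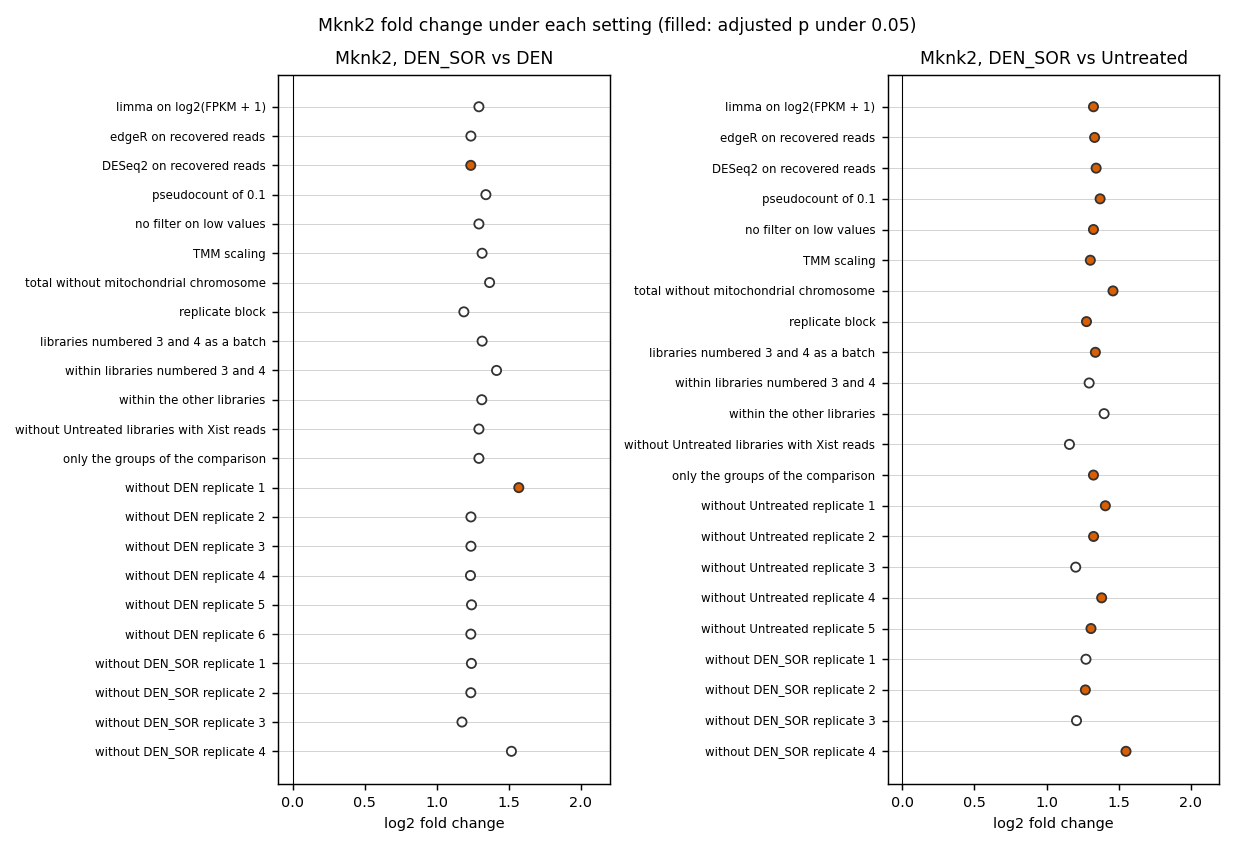
Log2 fold change of Mknk2 in DEN_SOR against DEN (left) and against Untreated (right) under each test, scaling, filter and set of libraries. Filled points have an adjusted p under 0.05; every value lies above 1, and the call against Untreated is lost under 6 settings.

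The genes whose levels followed Mknk2 most closely over the 25 libraries, among 12740 others, were Cln8 (Spearman rho 0.86), Pnpla2 (0.83) and Fbxo31 (0.83). The points share libraries and groups, and with group means removed the values were 0.80, 0.65 and 0.64. Pnpla2 encodes adipose triglyceride lipase and is itself a known FoxO1 target. It averaged 38.8 ± 12.9 FPKM in DEN_SOR against 19.7 ± 6.89 in Untreated livers and was not called (0.94, adjusted p = 0.146 by limma; 0.54, adjusted p = 0.673, with the 3 Xist-carrying libraries set aside). Fbxo31, which encodes an F-box protein, was not called either (0.87, adjusted p = 0.287; 0.15, adjusted p = 0.944, with those libraries set aside). Cln8, which encodes a membrane protein of the endoplasmic reticulum, averaged 5.16 ± 1.91 against 2.43 ± 0.587 FPKM and rose by that test (0.80, adjusted p = 0.0465 by limma), a call lost without the Untreated libraries with Xist reads (0.80, adjusted p = 0.255). Within the set, Foxo3 ranked 29 in likeness to Mknk2 (0.74) and Foxo1 61 (0.70), while Irs1 ranked 12374 (-0.44).

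Outside DEN_SOR, the FoxO genes and Mknk2 were high together in 2 libraries, and their other insulin-dependent genes are given as a description, since the libraries were picked after their values were seen. DEN 1 had the highest Trib1 and Txnip, FoxO targets, of the 25 livers and the second highest Pck1, the gene of the gluconeogenic enzyme PEPCK (731 FPKM, against a median of 180.0 in the other DEN livers). It had the lowest Pnpla3 (0.0817 FPKM against 3.29 in the other DEN livers) and Angptl8 (32.3 against 109), both induced by insulin in liver. DEN_CAF_SOR 3 showed a pattern that differed in part. It had the highest Fasn (53.3 FPKM against a median of 17.6 in the other DEN_CAF_SOR livers) and Thrsp (268 against 54.0), which serve fat synthesis. It had the lowest Irs1, Irs2, Ccng2 and Sesn3, of which the last 3 are FoxO targets. But it also had the highest Bnip3 (184 FPKM against 90.2) and Apoc3 (5072 against 2972), FoxO targets that were second highest in DEN 1. Among the 20 FoxO targets tested, 6 ranked in the top 3 of 25 livers in DEN 1 and none in the bottom 3, against 3 and 6 in DEN_CAF_SOR 3. Of all genes tested, 18.9% ranked in the top 3 and 4.59% in the bottom 3 in DEN 1, against 14% and 16.6% in DEN_CAF_SOR 3.

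Around the 9 genes, 98 further pathway genes were listed in 9 groups by role, of which 85 passed the filter. In DEN against Untreated 1 of the 85 was called (2.04% of all genes, so no larger a share than the background), a fall of Enpp1, which encodes a membrane phosphodiesterase known to inhibit the insulin receptor. Enpp1 averaged 1.71 ± 0.192 FPKM in DEN_CAF_SOR, 2.06 ± 0.101 in DEN_SOR, 1.77 ± 0.209 in DEN_CAF and 1.55 ± 0.291 in DEN livers, against 2.54 ± 0.143 in Untreated livers. The DEN difference was -0.48 (SE 0.09, adjusted p = 0.00429 by limma). Without the Untreated libraries with Xist reads it was -0.46 and lost the call (adjusted p = 0.132), as did the fit of only these groups (-0.48, adjusted p = 0.0572) and the libraries numbered 3 and 4 alone (-0.36, adjusted p = 0.257). No DEN liver reached the lowest Untreated liver, as for 1.33% of all genes in that direction. No liver of DEN_CAF_SOR, DEN_SOR or DEN_CAF reached it either, where 1.48%, 2.99% and 1.39% of all genes were lower without overlap. None of the 85 genes was called in the other 9 comparisons between groups or for the interaction.

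The test of any difference among the 5 groups called 2 of the 85, Enpp1 (adjusted p = 0.0269) and Trib3 (adjusted p = 0.0280). Neither passed without the Untreated libraries with Xist reads (adjusted p = 0.487 for Enpp1 and 0.125 for Trib3) or with the replicate block (0.0668 and 0.0567), and neither passed within the libraries numbered 3 and 4 or within the others. Enpp1 also missed the threshold with totals without the mitochondrial chromosome (0.142), and Trib3 with TMM scaling (0.0537) and with no filter (0.0652). Leaving out 1 library lost Enpp1 in 7 of 25 cases (each Untreated library, DEN 2 and DEN 5; adjusted p up to 0.0928). It lost Trib3 in 11 of 25 cases (Untreated 2, 3 and 5, DEN 2, 3, 5 and 6, DEN_CAF 2, 4 and 5, and DEN_SOR 3; up to 0.0615). Trib3 encodes a stress-induced pseudokinase that binds AKT. It averaged 9.27 ± 1.14 FPKM in DEN_CAF_SOR, 16.0 ± 4.73 in DEN_SOR, 16.7 ± 4.59 in DEN_CAF, 6.72 ± 2.63 in DEN and 8.95 ± 5.10 in Untreated livers. All livers that received a single drug lay above every DEN liver, as did 0.267% of all genes in DEN_SOR and 0.212% in DEN_CAF. The livers that received both drugs lay at 7.72 to 10.5 FPKM, and limma called neither difference from a single-drug group. The pairwise differences did not pass the threshold (1.16 for DEN_SOR against DEN, adjusted p = 0.252, and 1.22 for DEN_CAF against DEN, adjusted p = 0.317).

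Of the 20 FoxO targets tested, 7 had a positive log2 fold change in DEN_SOR against DEN, with a median of -0.04 beside -0.02 over all genes, and none was called. The 6 genes listed as induced by insulin in liver (Srebf1, Pnpla3, Fasn, Acly, Angptl8 and Thrsp) were all lower in mean log2 level in DEN_SOR than in DEN livers, with a median of -0.62 beside -0.02 over all genes. In DEN_CAF against DEN 1 of the 6 was higher, with a median of -0.46 beside 0.02 over all genes. In DEN_CAF_SOR against DEN 2 were higher, with a median of -0.09. Against Untreated livers, with all libraries, the medians were -0.58 in DEN_SOR and -0.56 in DEN_CAF. None of the 6 was called.

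The remaining lists held no called gene in any comparison. They were receptors and adaptors (5 of 11 tested), PI3K subunits (4 of 6), AKT, mTOR and GSK3 kinases and partners (19 of 19), FoxO relatives and cofactors (8 of 9), MNK and eIF4E genes (9 of 9) and IGF binding proteins (6 of 6). Mknk1, the other MNK gene, averaged 3.05 ± 0.666 FPKM in DEN_SOR against 3.31 ± 0.463 in Untreated livers (log2 fold change -0.10, 95% interval -0.36 to 0.16, or 0.07 with the 3 Xist-carrying Untreated libraries set aside). The median log2 fold changes in DEN_SOR against DEN were 0.05 for the PI3K subunits, -0.00 for the AKT list and -0.06 for the MNK and eIF4E list, beside -0.02 over all genes. They were 0.03 for receptors and adaptors and -0.05 for FoxO relatives and cofactors. The IGF binding proteins lay further off, with a median of -0.57 and 2 of 6 genes higher.

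**Figure D5:**
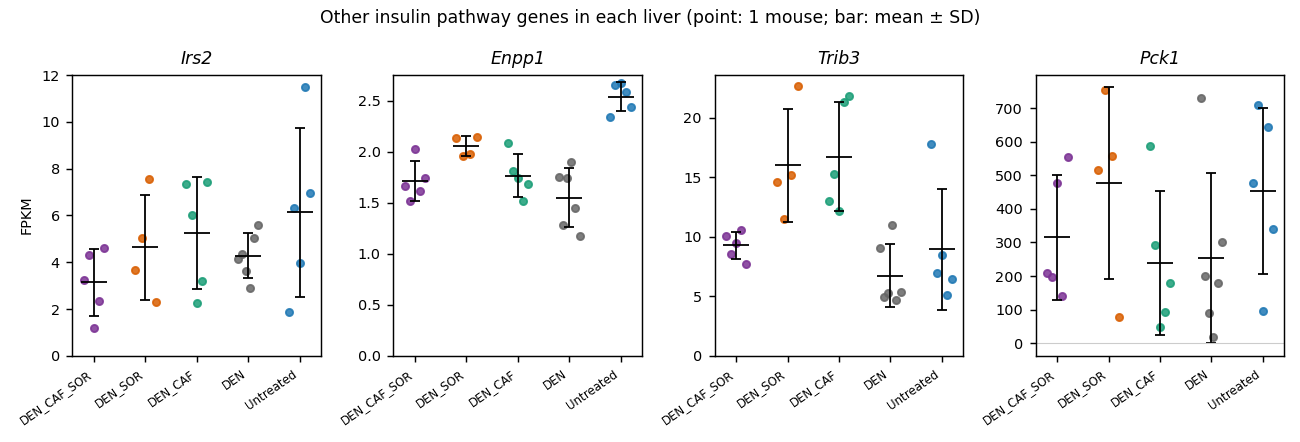
FPKM of 4 further genes of the insulin pathway in each liver (1 point per mouse, mean and SD per group; linear axis). Enpp1 is lower in all 4 DEN groups than in Untreated livers, and Trib3 is higher in DEN_SOR and DEN_CAF than in DEN livers, of which only the Enpp1 fall in DEN passed the test between 2 groups; Pck1 was chosen after its values were seen.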

How the data were processed

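Liver RNA was read in 25 libraries, 1 mouse each. Per the labels, RNA came from a phenol reagent with columns, and a SMARTer kit made the libraries. Per the submitters' processing notes, HISAT2 2.0.5, featureCounts 1.5.0-p3 and GRCm39 were used. No annotation release or strand setting is given in the sources used here. The tables the authors deposited are named for FPKM but hold a signal: each gene's whole reads over a size factor of the library, with no use of gene length. In each library 100% of values were whole multiples of 1 step within 0.01 read, so the reads were recovered, and FPKM were computed from them with library totals and the deposited gene lengths. This made the 5 tables, scaled separately, comparable.

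The test was limma 3.58.1 (R 4.3.3) on log2(FPKM + 1), a scale that understates changes of low genes, with 1 coefficient per group, 25 libraries, 20 residual degrees of freedom, a trend, and Benjamini-Hochberg adjustment over 12741 genes at 0.05, two-sided. A gene was tested where it stood in all 5 tables and 4 or more libraries reached an FPKM of 1. The files held another unit than the planned FPKM, so edgeR 4.0.16 and DESeq2 1.42.0 on recovered reads are given beside it. Other alternatives were a pseudocount of 0.1, no filter, TMM (edgeR's scaling), totals without the mitochondrial chromosome, replicate numbers as a block, libraries numbered 3 and 4 as a batch or apart, and fewer libraries. Labels name no batch; that split follows earlier results. Same-numbered libraries correlated above 0.1 in every pair in DEN_CAF against DEN (0.131 to 0.507) and in DEN_CAF against DEN_SOR (0.137 to 0.469). In these, 3 of 5 and 3 of 4 libraries correlated best with their own number. A pairing by number would rest on the data alone, and the reported test used none.

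The 9 genes, the lists and the tests were chosen with earlier results of these data known. A gene of the list of insulin-induced genes is not reported here and was left out of its counts. The 9 genes and Irs2 are always named, list members when called, and the 3 genes most like a called member. Promoter windows are from RefSeq. The script was tested on simulated reads. At 156 or more reads per value, counting error for the 9 genes was at most 8.01% of a value. Reads overlapping other genes were at most 49 per library, for Gm9747 at Irs1. Pairs of libraries of a group differed beyond counting in all 51 cases (chi-square per degree of freedom of 17.1 or more).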

Additional observations from a re-analysis of the deposited data

Results flagged for a closer look

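Of 50 combinations of a gene (the 9 genes and Irs2) and a group, 10 held a library far from the others of its group. The threshold marks about 1 in 20 groups by chance if values are normal and independent, which FPKM of genes measured in the same libraries need not be. DEN 1 accounted for 4 of them: Foxo1 at 6.62 FPKM against 2.42 in the nearest DEN library, Foxo3 at 5.64 against 3.48, Igfbp1 at 235 against 87.9, and Mknk2 at 46.3 against 14.2. DEN_CAF_SOR 3 accounted for 3: Pik3r1 at 6.98 FPKM against 3.65 in the nearest library, Foxo1 at 6.52 against 3.12, and Foxo3 at 6.11 against 4.05. Igfbp1 stood at 438 FPKM in DEN_CAF 1 against 105 in the nearest DEN_CAF library. Akt1 was low in DEN 3, at 7.61 FPKM against 10.2, in a library with 33.4% mitochondrial reads. Foxo3 stood at 5.09 FPKM in Untreated 1, against 3.45 in the nearest Untreated library.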

How the results depend on the processing

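Of 2268 values of the 9 genes under an alternative setting, in the comparisons between groups and the interaction, 2254 kept their side of the threshold and, where called, their direction; 6 lost a call, 8 gained one and none called was reversed. Among values uncalled both ways, 198 changed sign. The test over 5 groups, with no direction, gave 324 further values, of which 6 gained a call. Members called in DEN_SOR against Untreated were 1 as reported. They were 2 by DESeq2 and 2 with totals without the mitochondrial chromosome (Foxo3 added), 0 within libraries numbered 3 and 4, 0 within the other libraries, 0 without the Untreated libraries with Xist reads, and 0 to 2 leaving out 1 library. In DEN_SOR against DEN they were 0 as reported, 2 by DESeq2 and 0 to 1 leaving out 1 library. DESeq2 called 1 in DEN against Untreated, 1 in DEN_CAF against Untreated and 2 in the test over 5 groups, where 1 was called with totals without the mitochondrial chromosome and 0 to 2 leaving out 1 library. The cause of these shifts was not tested, and settings on part of the libraries hold fewer samples.

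Over all genes, calls against Untreated for DEN_CAF_SOR, DEN_SOR, DEN_CAF and DEN were 63, 334, 129 and 260 as reported. They were 166, 527, 218 and 598 by edgeR and 395, 1195, 461 and 1040 by DESeq2. With a pseudocount of 0.1 they were 100, 416, 197 and 364. With the 3 and 4 batch they were 102, 536, 218 and 477, within libraries numbered 3 and 4 they were 124, 81, 48 and 540, and within the others 47, 403, 152 and 166. Without the Untreated libraries with Xist reads they were 16, 49, 33 and 44, and in fits of only the groups compared 149, 308, 284 and 124. Leaving out 1 library gave 34 to 73, 107 to 470, 79 to 129 and 146 to 318. Higher and lower calls in DEN_SOR were 209 and 125, but 249 and 238 with TMM scaling and 450 and 111 without the mitochondrial chromosome. With TMM all 4 gave 96, 487, 153 and 380 calls, and with totals without the mitochondrial chromosome 67, 561, 222 and 320. Against DEN, DESeq2 called 31 genes for DEN_SOR and 10 for DEN_CAF, where limma called 0 and 1, and 13 were called for DEN_SOR within the libraries not numbered 3 and 4.

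With replicate numbers as a block, members called were unchanged in number in every comparison, and Mknk2 in DEN_SOR against Untreated was 1.28 (adjusted p = 0.0251). Calls over all genes under the block were 70, 284, 158 and 359 against Untreated, and 0 for DEN_CAF against DEN. Apart from DEN_CAF against DEN and DEN_CAF against DEN_SOR, same-numbered libraries correlated from -0.282 to 0.535. The reported fit did not pair libraries by number in any comparison. The test over 5 groups has no fit of only the groups compared. Groups of 4 to 6 mice limit what could be resolved.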
